A study of Homo sapiens with 6 samples.

Results

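The cytosolic ribosomal protein genes encode the protein subunits of the ribosome that works outside mitochondria. They were chosen by name, as the autosomal protein-coding RefSeq genes whose symbol is RPL or RPS followed by a number, with an A at the end in some, together with RPLP0, RPLP1, RPLP2 and RPSA. Copies with a suffix, readthrough names, RPS19BP1, RPSA2 and the S6 kinases were left out. This gave 73 of 19126 autosomal coding genes, 43 of the large subunit and 30 of the small subunit. Lactylation of histone H4 at lysine 5 (H4K5la), an acyl mark derived from lactate, had been mapped by ChIP-seq in PLC/PRF/5, an established line of human hepatocellular carcinoma cells. Peak lists were available for 2 libraries of cells given 20 mM lactate for 24 h (lactate replicates 2 and 3) and for 2 libraries of untreated cells (control replicates 2 and 3). Neither group carries a genetic change that the labels name, both come from a single cell line, and no label says whether replicates were separate cultures. The p-values below therefore reflect spread between libraries that may be no more than technical.

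Most ribosomal proteins bind the ribosomal RNAs and are made in roughly equal amounts, from genes that are among the most highly expressed in any growing cell. Their mRNAs begin with a C and a run of pyrimidines, the terminal oligopyrimidine (TOP) tract, through which mTOR signalling controls their translation. Many of the genes carry small nucleolar RNAs in their introns, which guide the modification of ribosomal RNA. A peak list records where the antibody signal passed the caller's threshold and measures neither transcription nor the number of ribosomes.

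Promoter sequences are shown for genes whose peaks lay at or near the start, which were a minority. RefSeq promoter sequences (GRCh38.p14), from 250 bases before to 50 bases into the gene, matched 58 of the 73 genes. They are printed 5′ to 3′ for 4 genes on the plus strand. A peak overlapped the promoter of 3 and 3 of the 58 genes (5.17% and 5.17%) in the lactate libraries and of 8 and 10 (13.8% and 17.2%) in the control libraries, where all coding promoters stood at 5.50% and 5.53% with lactate and 9.09% and 10.2% in control. RPL31 is the gene whose promoter lay under a peak in all 4 libraries (1.72%, against 2.60% of all promoters), and RPL38 the gene whose peak summit lay just past the start in all 4. No peak in any library overlapped the printed window of RPL38. RPL27A and RPS24 had a peak overlapping the promoter in each control library and in no lactate library. RPL31 follows the rule for sequences, and the other 3 were chosen after their values were seen. Capitals mark the pyrimidine tract at the annotated start. The windows are chr2:101002039-101002338 for RPL31, chr17:74203428-74203727 for RPL38, chr11:8682542-8682841 for RPL27A and chr10:78033613-78033912 for RPS24.
RPL31: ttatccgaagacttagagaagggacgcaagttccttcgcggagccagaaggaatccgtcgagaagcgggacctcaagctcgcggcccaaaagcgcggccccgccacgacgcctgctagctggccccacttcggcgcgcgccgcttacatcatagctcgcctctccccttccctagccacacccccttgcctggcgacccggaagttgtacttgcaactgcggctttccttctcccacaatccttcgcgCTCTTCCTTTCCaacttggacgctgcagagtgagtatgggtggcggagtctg
RPL38: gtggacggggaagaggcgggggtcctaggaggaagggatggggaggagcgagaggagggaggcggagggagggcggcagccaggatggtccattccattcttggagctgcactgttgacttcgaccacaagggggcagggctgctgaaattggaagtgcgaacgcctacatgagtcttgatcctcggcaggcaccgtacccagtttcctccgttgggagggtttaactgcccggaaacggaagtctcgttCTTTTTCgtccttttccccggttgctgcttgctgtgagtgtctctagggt
RPL27A: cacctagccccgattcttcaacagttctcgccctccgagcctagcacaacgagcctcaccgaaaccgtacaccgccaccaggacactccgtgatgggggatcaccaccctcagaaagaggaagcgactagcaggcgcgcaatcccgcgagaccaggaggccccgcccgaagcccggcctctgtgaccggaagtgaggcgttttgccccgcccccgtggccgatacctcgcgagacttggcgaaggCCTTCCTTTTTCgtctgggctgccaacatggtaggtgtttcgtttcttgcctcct
RPS24: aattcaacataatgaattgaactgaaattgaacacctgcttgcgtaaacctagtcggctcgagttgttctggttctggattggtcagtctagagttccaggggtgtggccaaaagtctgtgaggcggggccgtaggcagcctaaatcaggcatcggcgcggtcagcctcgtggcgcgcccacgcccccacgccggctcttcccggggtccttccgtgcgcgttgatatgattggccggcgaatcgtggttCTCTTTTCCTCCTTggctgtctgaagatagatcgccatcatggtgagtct

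A TOP-like tract, taken as a C followed by at least 4 pyrimidines and beginning within 5 bases of the annotated start, was found in 47 of the 58 promoters (81.0%), against 22.1% of 15101 autosomal coding promoters. The tract ran over 12 bases in RPL31, 7 in RPL38, 12 in RPL27A and 14 in RPS24. An ETS motif (CCGGAAG, either strand) stood in 20 of the 58 promoters (34.5%), against 14.3% of all, and in the printed windows it began 53 bases before the start of RPL31 and 65 before that of RPL27A. The YY1 letters AAGATGG were in 13.8% against 6.28%. The SP1 letters GGGCGG were in 53.4% against 58.7%, the E-box CACGTG in 5.17% against 8.71% and the TATA box TATAAA in 8.62% against 9.83%, all on either strand. The ETS letters end in AAG, with which the YY1 letters begin, so that matches to both can overlap. The matches are descriptions of sequence and say nothing of which factor is bound.

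The first comparison asked how many ribosomal protein genes carried H4K5la with and without added lactate. Counted were genes with at least 1 bp of a peak in their span or in the 1 kb on either side. Peaks were found at 16 and 15 of the 73 genes in the lactate libraries, against 25 and 30 in the control libraries. The mean was 15.5 ± 0.707 genes (21.2%) in lactate and 27.5 ± 3.54 genes (37.7%) in control libraries (SD, n = 2 each), a ratio of 0.564. Both lactate libraries lay below both control libraries. An exact permutation test (two-sided) gave p = 0.333, the smallest value that 4 libraries split into pairs allow.

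The background moved in the same direction. Over all autosomal coding genes the share with a peak was 37.9% and 38.4% in the lactate libraries and 45.2% and 46.9% in the control libraries. Ribosomal protein genes are short, with a median span of 4799 bp against 24476 bp for coding genes, and a short gene has less room for a peak. Coding genes of like length, within 25% of a member's span and weighted so that each member counts equally, had a peak in 24.7% and 25.5% of cases in the lactate and 34.6% and 37.2% in the control libraries. The shares of the ribosomal protein genes were 21.9% (exact Clopper-Pearson 95% interval 13.1 to 33.1%) and 20.5% (11.98 to 31.6%) in lactate libraries, and 34.2% (23.5 to 46.3%) and 41.1% (29.7 to 53.2%) in control libraries. Each interval, which covers the counting of genes only, holds the share of genes of like length. The lists also differ in size, with 37951 and 38402 peaks in the lactate and 52215 and 52959 in the control libraries. With 37951 peaks in every library, 16 and 15 ribosomal protein genes had a peak with lactate and 15 and 19 without it, so the difference of 12 genes shrank to 1.5 (exact permutation p = 1).

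**Figure D1:**
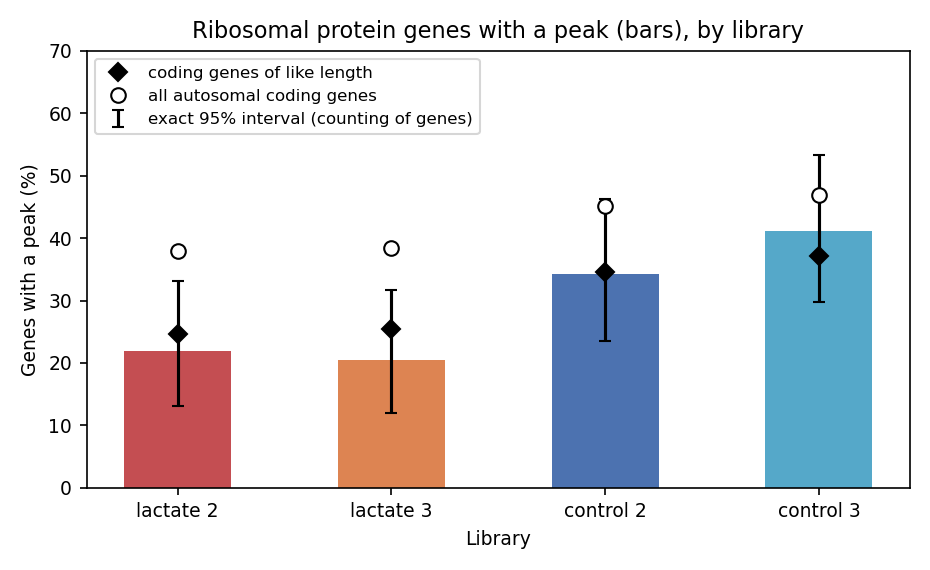
Percentage of ribosomal protein genes with a peak in the gene plus 1 kb (bars, with exact 95% intervals) in each library, beside coding genes of like length (diamonds) and all autosomal coding genes (circles). The bars stand at 21.9% and 20.5% in the lactate and 34.2% and 41.1% in the control libraries, and every interval spans its diamond.

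The gene windows held 19 and 19 distinct peaks in the lactate libraries and 28 and 35 in the control libraries (exact permutation p = 0.333). Per gene this was 0.260 and 0.260 peaks with lactate and 0.384 and 0.479 in control. Genes of like length held more in every library and were also lower with lactate, at 0.379 and 0.402 peaks per gene with lactate and 0.607 and 0.658 in control. With equal numbers of peaks the means were 18.5 with lactate and 18.5 in control. Peaks covered 9097 and 10191 bp of the windows in lactate and 17814 and 21805 bp in control libraries, a ratio of 0.487 (exact permutation p = 0.333). With equal numbers of peaks the covered length averaged 9394.5 bp with lactate and 12842.5 bp in control libraries (exact permutation p = 0.667). The median width of these peaks was 437 and 502 bp in lactate and 620.5 and 460 bp in control libraries, where the groups overlap. Over all peaks of the lists it was 448 and 437 bp with lactate and 547 and 537 bp in control. At genes of like length it was 481 and 465 bp with lactate and 590 and 586 bp in control, so peaks there were also narrower with lactate. The widest peak at the ribosomal protein genes, 2098 bp, lay at RPL18 in control replicate 3.

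In fold enrichment, the authors' value at the summit, these peaks were of middling rank. The median percentile within the library's own list was 40.3 and 51.0 in the lactate and 32.2 and 30.1 in the control libraries (exact permutation p = 0.333). Peaks at genes of like length had medians of 40.3 and 36.5 in lactate and 36.3 and 33.3 in control libraries. Lactate replicate 3 set part of the gap between groups, which was 14.5 points with it and 9.15 points without it.

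Genes were then sorted by the libraries in which they had a peak. All 4 libraries had one at 10 of the 73 genes (13.7%, exact interval 6.77 to 23.8%), against 29.6% of all autosomal coding genes and 18.1% of coding genes of like length. Peaks in each control library and no lactate library (control-only) were found at 10 genes (13.7%, exact interval 6.77 to 23.8%), against 5.8% of all and 7.27% of genes of like length. The converse (lactate-only) held for 1 gene (1.37%), against 1.06% of all and 0.766% of genes of like length. The lactate-only count was 2 without lactate replicate 2, against 2.44% of all autosomal coding genes, and 3 without lactate replicate 3, against 2.38%. A single lactate library remained in each of these settings. A further 16 genes (21.9%) had other combinations, against 18.8% of all and 18.1% of genes of like length. No peak in any library was found at 36 genes (49.3%), against 44.7% of all and 55.8% of genes of like length. The 4 mixed pairs of 1 lactate and 1 control library gave 0 to 2 of the 73 genes each, against 0.491% to 0.706% of all. With equal numbers of peaks, 4 genes (5.48%) had a peak in all 4 libraries, against 26.2% of all autosomal coding genes and 14.4% of genes of like length. In that setting 6 of the 73 genes were control-only and 2 lactate-only, against 2.67% and 2.68% of all autosomal coding genes. Members were chosen by name and with earlier results on these lists known, and no test was made of these shares.

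**Figure D2:**
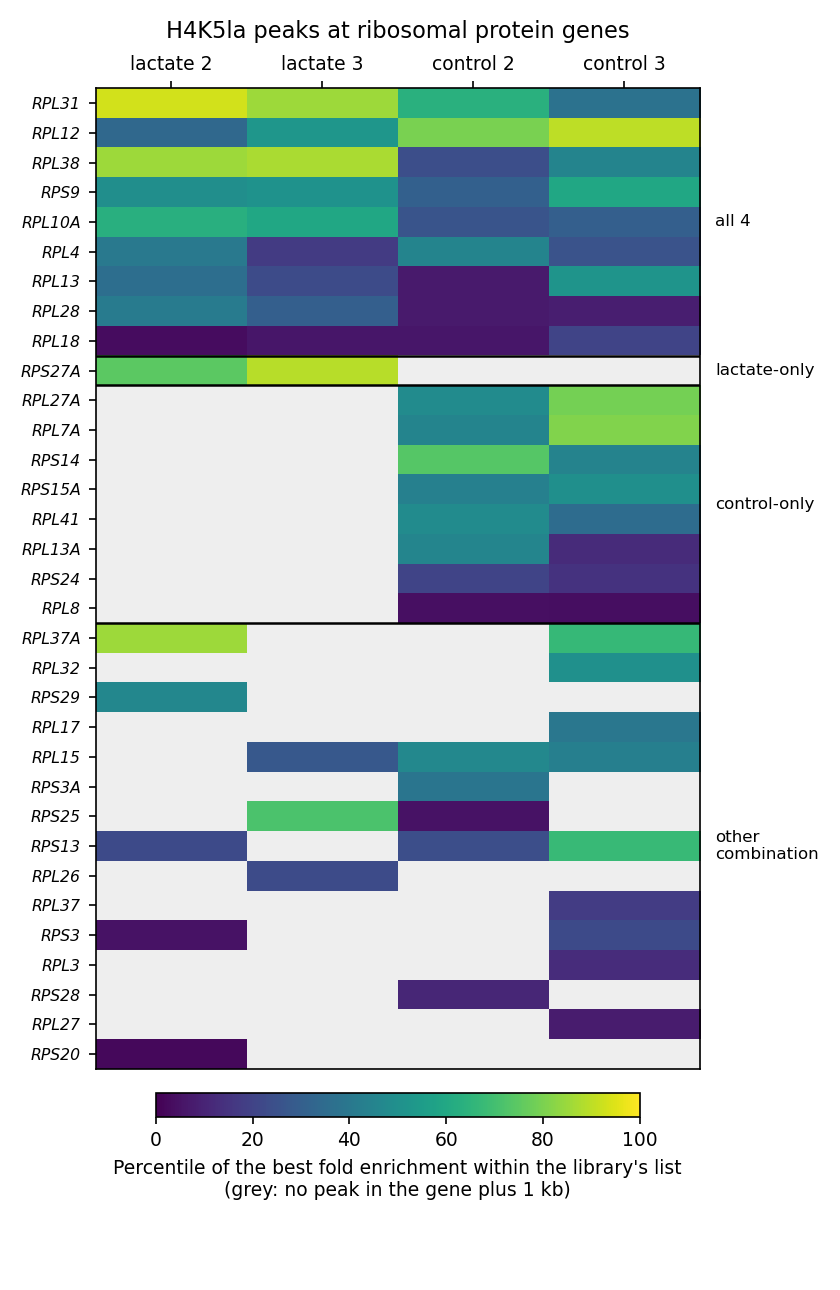
Each row is 1 of 33 ribosomal protein genes with a peak in at least 1 library and each column a library. Colour gives the percentile of the gene's best fold enrichment within that library's list, and grey marks no peak. Of the 33 genes drawn, 9 have a peak in all 4 libraries, 1 in the lactate libraries alone and 8 in the control libraries alone.

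Among other genes the share grew with length. Of other coding genes up to 2 kb long 8.06% had a peak in all 4 libraries, and of those over 32 kb 38.0%. Among ribosomal protein genes such peaks were found at 0 of 5 up to 2 kb, 4 of 22 between 2 and 4 kb and 4 of 31 between 4 and 8 kb. From 8 to 16 kb they were found at 0 of 10, and from 16 to 32 kb at 2 of 5.

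**Figure D3:**
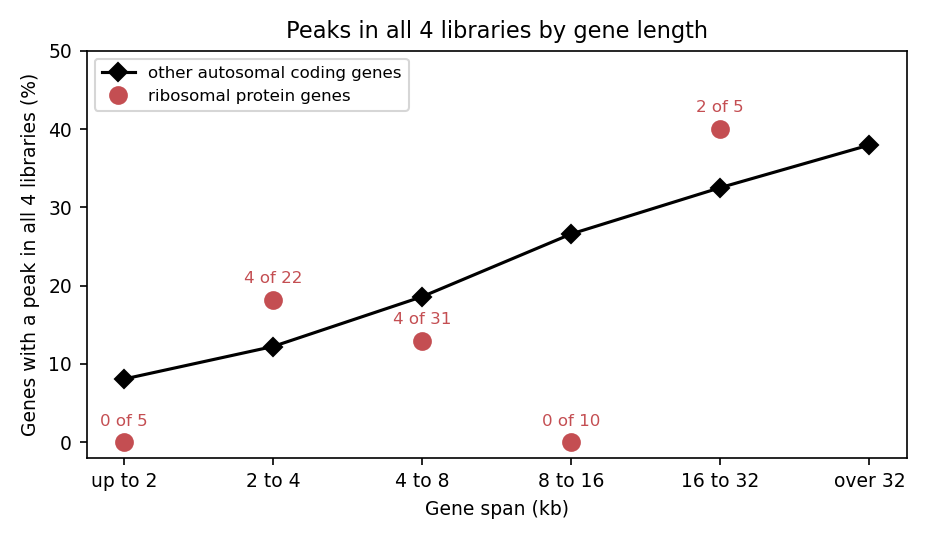
Percentage of genes with a peak in all 4 libraries by gene span, for other autosomal coding genes (diamonds) and ribosomal protein genes (circles, with counts). The diamonds climb from 8.06% to 38.0%, and the circles, each resting on 5 to 31 genes, lie on both sides of them.

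RPL31, a large subunit gene near the exit of the nascent chain, had the best mean rank of the 10 genes with peaks in all libraries. A single peak covered its start in each library, at 1070 and 1040 bp wide with lactate and 902 and 1051 bp in control, and 902 bp were common to all 4. The summits lay at -303 and -434 bp from the start with lactate and at 215 and -445 bp in control. Its fold enrichment was 12.5 and 10.9 in the lactate and 7.98 and 6.82 in the control libraries. Both lactate values lay above both control values.

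RPL38, a large subunit gene that in the mouse is needed for correct patterning of the axial skeleton, held a narrow peak whose summit lay 287 and 282 bp past the start with lactate and 263 and 305 bp past it in control. The fold enrichment there was 10.6 and 11.3 in the lactate and 5.49 and 7.32 in the control libraries. Both control libraries held a second peak before the start, with summits at -800 and -678 bp, which neither lactate list held. RPL10A, which encodes the mobile L1 stalk, had a peak in its first kilobase with a fold of 8.06 and 7.93 in lactate and 5.75 and 6.31 in control libraries.

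RPL28, of the large subunit, had values of 6.588 and 5.9998 in lactate and 4.17 and 4.42 in control libraries, but its best peaks lay at different places and no base was shared by all 4 libraries. RPS9, whose protein sits at the path where mRNA enters the small subunit, likewise had no base in common, with folds of 7.09 and 7.38 in lactate and 6.02 and 8.29 in control libraries.

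RPL12, whose protein anchors the stalk that recruits elongation factors, had peaks at separate sites. Its best fold was 6.08 and 7.44 in the lactate libraries, from a peak with its summit upstream of the start, inside LRSAM1, a neighbouring ubiquitin ligase gene. In the control libraries it was 9.35 and 11.6, from a peak with its summit inside RPL12, so the best values are of different places. At the LRSAM1 site control replicate 2 had a fold of 6.67, and inside RPL12 lactate replicate 3 had a fold of 6.96 and lactate replicate 2 no summit. The single peak of control replicate 3, 1709 bp wide, ran over both sites. At the LRSAM1 site 490 bp were common to all 4 libraries. RPL18 had 3.42 and 3.87 in lactate and 4.05 and 5.61 in control libraries. At RPL18 the peaks were 520 and 722 bp wide with lactate, with their summits inside FAM83E, and 1773 and 2098 bp wide in control, with their summits inside RPL18.

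RPL4, whose protein lines the exit tunnel, had values of 6.49 and 5.06 in lactate and 6.88 and 6.04 in control libraries, in a peak 154 to 194 bp past its 3′ end, in the window of SNAPC5. RPL13, also of the large subunit, had values of 6.29 and 5.46 in lactate and 4.21 and 7.77 in control libraries, with 1025 bp towards its 3′ end common to all 4. The best fold of control replicate 3 came from a second peak beyond that end. Of the 10 genes, then, the best fold was higher in both lactate than in both control libraries at 5, lower in both at 2 and overlapping at 3. At RPL28, RPL12 and RPL18 the best peaks of the 2 groups had their summits at different places. Over the 5665 coding genes with a peak in all 4 libraries it was higher at 25.8% and lower at 28.2%. These folds rank peaks within their own list and do not measure a change.

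Among the 10 control-only genes, RPL27A had the best rank. Its peak ran over the promoter and the first part of the gene in both control libraries, at 1063 and 983 bp wide and with a fold of 7.06 and 9.92. TRIM66 also spans this place, and both summits lay inside both genes. RPL7A, which hosts 4 small nucleolar RNA genes, had a fold of 6.89 and 10.2, with summits 318 and 412 bp past the start. RPS14, whose loss from a deleted part of chromosome 5 causes the anaemia of the 5q- syndrome, had peaks with summits 275 and 310 bp past the start and folds of 8.74 and 5.89 there. RPS24, mutated in some cases of Diamond-Blackfan anaemia, had summits 210 and 157 bp past the start and folds of 5.41 and 5.11. All 4 of these genes were without a peak in either lactate library.

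Other control-only genes differed in where the peak lay. RPS15A had folds of 6.76 and 7.60, and RPL8, whose protein lies at the peptidyl transferase centre, had 3.75 and 3.62 beyond its upper end. RPL41, which encodes the smallest ribosomal protein, had 7.06 and 6.66, with both summits inside the neighbouring gene ZC3H10. RPL13A had 6.90 and 4.91 in a peak over SNORD33, one of the small nucleolar RNAs it hosts, and no other peak at the 73 genes touched a small nucleolar RNA gene. RPL27A, RPL7A, RPS14 and RPS15A were control-only also with equal numbers of peaks.

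RPS27A, which encodes a small subunit protein made as a fusion with ubiquitin, was the lactate-only gene. Its peaks were 347 and 359 bp wide, had folds of 9.16 and 11.7 and placed their summits 1254 and 1241 bp past the outermost annotated start, inside the gene. RPS27A was lactate-only with equal numbers of peaks as well, where RPL28 joined it. RPL37A is a case just outside these classes, with a peak summit 234 bp past the start in lactate replicate 2 and 234 bp past it in control replicate 3, at folds of 10.6 and 8.74, and no peak in the other two libraries.

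The 16 genes of other combinations were mostly seen in a single library. RPL32, RPL17, RPL37, RPL3 and RPL27 had a peak in control replicate 3 alone, RPS3A and RPS28 in control replicate 2 alone, RPS29 and RPS20 in lactate replicate 2 alone and RPL26 in lactate replicate 3 alone. RPL37A and RPS3 shared lactate replicate 2 and control replicate 3, and RPS25 lactate replicate 3 and control replicate 2. RPL15 lacked a peak in lactate replicate 2 and RPS13 in lactate replicate 3. The folds of their peaks ran between 2.75, at RPL15 in lactate replicate 3, and 10.6, at RPL37A in lactate replicate 2.

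No peak in any library was found at 36 genes, which include much of what is best known of the ribosome. RPLP0, RPLP1 and RPLP2, the acidic stalk proteins that bind elongation factors, and RPSA, the laminin receptor protein of the small subunit, had none. RPL5 and RPL11, which bind MDM2 when ribosome assembly fails, RPS6, the target of the S6 kinases, and RPS19, the gene most often mutated in Diamond-Blackfan anaemia, had none either. Others were RPL6, RPL7, RPL9, RPL14, RPL19, RPL21, RPL22, RPL23, RPL23A, RPL24, RPL29, RPL30, RPL34, RPL35, RPL35A and RPL36 of the large subunit. Small subunit genes with none included RPS2, RPS7, RPS10, RPS12, RPS15, RPS16, RPS18, RPS21, RPS23, RPS26 and RPS27. Absence from a list means that the caller's threshold was not passed, not that H4K5la was missing.

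The position of the summits was compared over the 58 genes with an annotated start and strand. A summit lay 0 to 500 bp past the start at 3 and 4 genes in the lactate libraries, against 9 and 11 genes in the control libraries. The means were 3.5 ± 0.707 and 10 ± 1.41 genes (SD, n = 2 each; exact permutation p = 0.333, the smallest possible), and the groups do not overlap. As shares these are 5.17% and 6.90% with lactate and 15.5% and 19.0% in control. Coding genes of like length had such a summit in 4.78% and 5.40% of cases with lactate and 7.91% and 8.77% in control libraries, and all coding genes with a start in 4.42% and 4.7% with lactate and 6.84% and 7.84% in control. With equal numbers of peaks the counts were 3 and 3 genes (5.17% and 5.17%) in lactate and 7 and 6 (12.1% and 10.3%) in control libraries. Genes of like length then stood at 4.78% and 5.20% with lactate and at 5.09% and 5.81% in control.

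Farther inside the gene the ribosomal protein genes had fewer summits than genes of like length in all 4 libraries. A summit over 500 bp past the start and inside the gene was found at 7 and 5 genes (12.1% and 8.62%) with lactate and at 6 and 8 genes (10.3% and 13.8%) in control libraries. Genes of like length had one in 17.1% and 17.6% of cases with lactate and 23.5% and 24.8% in control, and all coding genes in 31.8% and 32.1% with lactate and 37% and 37.6% in control. The lactate and control counts overlap (exact permutation p = 0.667). Summits in the 1 kb before the start were found at 3 and 3 genes with lactate and 5 and 3 in control. These are 5.17% and 5.17% with lactate and 8.62% and 5.17% in control, against 3.70% and 3.597% of genes of like length with lactate and 5.44% and 5.76% in control. In the 1 kb beyond the 3′ end they were found at 1 and 4 genes (1.72% and 6.90%) with lactate and 3 and 3 genes (5.17% and 5.17%) in control. Genes of like length had 2.76% and 3.16% there with lactate and 4.96% and 5.49% in control.

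**Figure D4:**
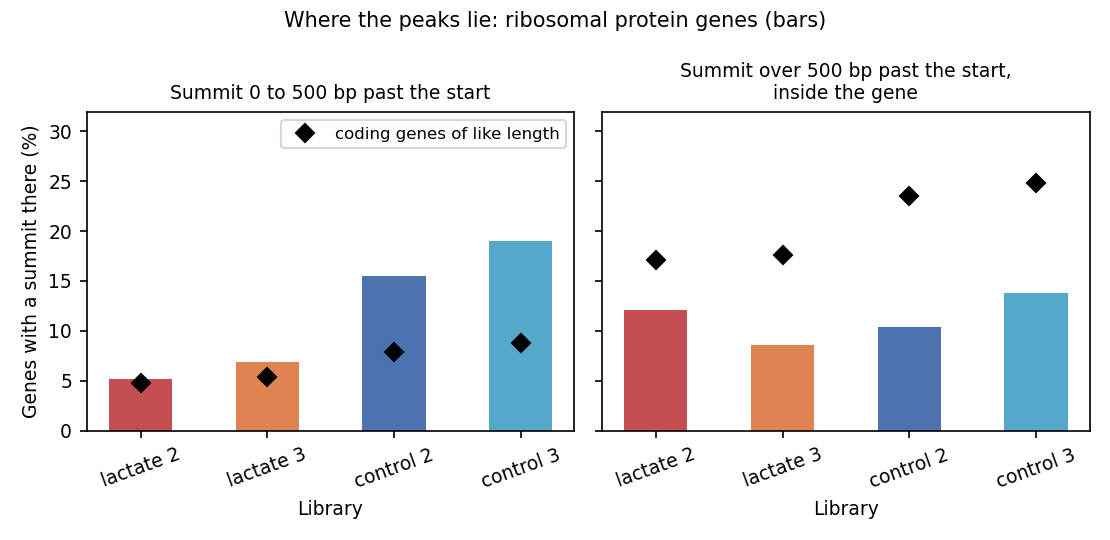
Percentage of the 58 stranded ribosomal protein genes with a peak summit 0 to 500 bp past the start (left) or farther inside the gene (right) in each library (bars), beside coding genes of like length (diamonds). Left, the control bars reach 15.5% and 19.0% and the lactate bars 5.17% and 6.90%. Right, every bar lies under its diamond.

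RPL38 was the gene with a summit 0 to 500 bp past the start in all 4 libraries (1.72% of 58, against 1.38% of all coding genes with a start). RPL27A, RPL7A, RPS14 and RPS24 had one in each control library and no lactate library (6.90%, against 1.94% of all and 1.95% of genes of like length). With equal numbers of peaks this class held RPL27A and RPL7A (3.45%, against 0.914% of all and 0.910% of genes of like length), and RPS24 had no peak in any library. Such a summit in the 2 lactate libraries alone was found at 0 genes, against 0.503% of all. Another 12 genes had one in some other combination, among them RPL12, RPL37A and RPS3A. These 12 made up 20.7% of the 58, against 8.49% of all and 9.96% of genes of like length. At RPS3A, in control replicate 2 alone, the summit lay 245 bp past the start, and at RPL17 and RPL3, in control replicate 3 alone, 215 and 119 bp past it. The annotated start itself lay under a peak at 2 and 2 genes with lactate and 6 and 9 in control libraries (exact permutation p = 0.333). These are 3.45% and 3.45% with lactate and 10.3% and 15.5% in control, against 5.13% and 4.89% of genes of like length with lactate and 9.13% and 9.25% in control.

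**Figure D5:**
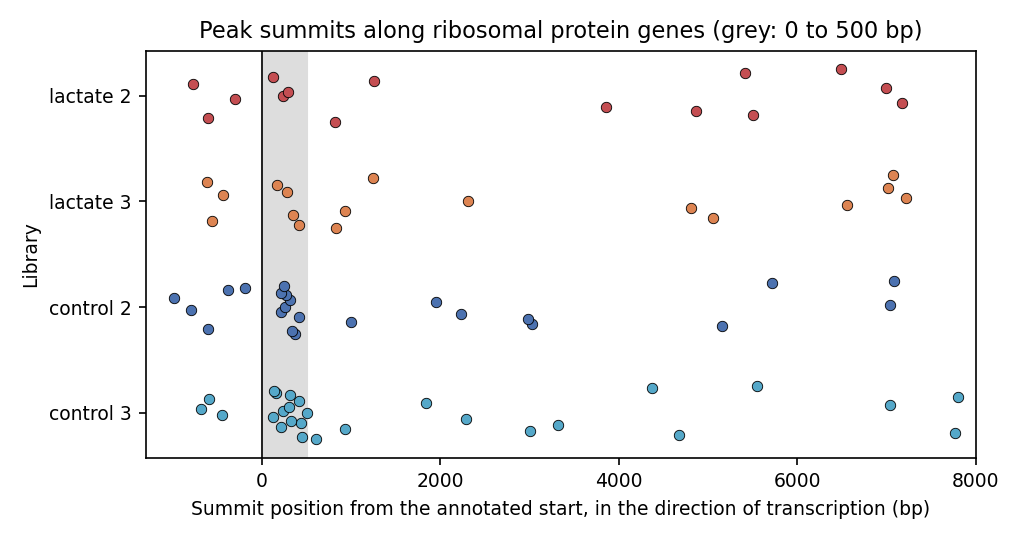
Positions of peak summits along the 58 ribosomal protein genes with an annotated start, by library, in bp from the start in the direction of transcription (84 summits, of which 82 lie within 8 kb and are drawn; vertical spread within a library has no meaning). The grey band from 0 to 500 bp holds summits of 3 and 4 genes in the lactate and 9 and 11 genes in the control libraries.

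The counts were also split by subunit and chromosome, with no test of a difference. Large subunit genes with a peak numbered 9 and 11 of 43 in the lactate and 14 and 21 in the control libraries. Small subunit genes with a peak numbered 7 and 4 of 30 with lactate and 11 and 9 in control. Of the 10 genes with peaks in all 4 libraries 8 belong to the large subunit, while the control-only genes are split 5 and 5. The share with a peak was higher in the small subunit in both replicate 2 libraries and higher in the large subunit in both replicate 3 libraries. Chromosome 19 holds 12 of the genes, and 8 of these had a peak in some library and 4 in all, where 37.6% of all coding genes on that chromosome had one in all 4. The 5 genes of chromosome 1 had none. Of the 27 genes that host small nucleolar RNAs 17 had a peak in some library, against 20 of the 46 others, at a median span of 5011 bp against 4743 bp. Over all autosomal coding genes, which are longer, 55.3% had a peak in some library, while 55.8% of genes of like length had none in any library. Control-only were 3 of the 27 and 7 of the 46, against 5.8% of all and 7.27% of genes of like length. These shares for like length were matched to the ribosomal protein genes together, not to hosts and others apart.

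Another coding gene lies in the window of 33 of the 73 genes. A summit inside another coding gene was found for 2 of 19 and 6 of 19 peaks with lactate and 5 of 28 and 4 of 35 in control libraries. Inside the ribosomal protein gene itself lay 13 and 11 summits with lactate and 16 and 23 in control. Peaks of the ribosomal protein gene and of a neighbour cannot be told apart where they share a window.

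Related genes were described in the same way. Of 77 mitochondrial ribosomal protein genes, whose products form the separate ribosome of mitochondria, 12 (15.6%) had a peak in all 4 libraries, against 22.8% of genes of like length. Control-only were 9 of the 77, where 5.8% of all autosomal coding genes were in that class. Of those 12, MRPL43, MRPL23 and MRPL44 had the best mean rank, and MRPL43 had folds of 13.9 and 11.7 in lactate and 12.8 and 11.96 in control libraries. Of 17 other genes whose mRNAs carry a TOP tract 4 had a peak in all 4 libraries (23.5%, against 26.4%), namely EEF1G, NPM1, EEF2 and EEF1D. EIF3H, with folds of 9.16 and 7.87, and EEF1B2, with 6.517 and 6.202, were lactate-only among these 17, against 1.06% of all autosomal coding genes. Ribosome assembly genes had peaks in all 4 libraries at 10 of 29 (34.5%, against 26.5%), led by TCOF1, RRP12 and RRP9. Control-only were 4 of the 29, against 5.8% of all autosomal coding genes.

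Genes with an RPS6K symbol, taken as S6 kinase genes by name alone, had a median span of 51359.5 bp. They had peaks in all 4 libraries at 4 of 8 (50%, against 37.6% of genes of like length). RPS6KA2 led them, with folds of 17.7 and 15.2 in lactate and 12.03 and 12.8 in control libraries. RPS6KB2 was control-only, and RPS6KB1 had a peak in control replicate 2 alone. Of 8 copies with a suffix RPL3L had one in all 4 (12.5%, against 20.7%). Marker genes of hepatocytes and liver carcinoma had peaks in all 4 libraries at 3 of 15 (20%, against 25.8% of genes of like length), and marker genes of other cell types at 5 of 7 (71.4%, against 30.3%). A peak is no measure of expression, and the part of other cells in any result was not tested.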

How the data were processed

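H4K5la peak lists of 2 lactate and 2 control libraries were analysed. The input libraries are not used here. Trimming, alignment and removal of duplicates came first, per the labels' protocols. Tools named in the submitters' processing notes include Trimmomatic 0.38, Bowtie2 2.3.4.2, Picard 2.18.11 and MACS2 2.2.6, and the build named there is hg38. Each list is of 1 library. The authors' deposited columns hold positions and summit offsets in bp, the caller's score, the fold (ratio) of signal over background at the summit, and p-values and q-values on the -log10 scale. The lists hold no read counts, so depth is unknown, and its part in the lengths of the lists was not tested.

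Spans of genes were read from RefSeq (GRCh38.p14), whose main chromosomes share coordinates with hg38, and starts and strands from the RefSeq promoter table, taking the outermost start. Exons and introns were not assigned. Python 3.11.15, pandas 2.3.3, numpy 2.4.6, scipy 1.17.1 and matplotlib 3.10.9 were used, and the counting was tested on simulated data. Groups were compared by exact two-sided permutation tests over 6 assignments of labels. In the all-4, control-only and lactate-only classes, up to 15 genes each by mean percentile of fold enrichment were named with values. RPLP0, RPLP1, RPLP2 and RPSA were named too. Most genes of other combinations, and those without a peak, were named without values. Up to 3 genes were named in each other list, but more among the other genes with a TOP tract. Genes of small counts, and those named for a position or for being best known, were chosen after their values were seen. The members and lists were chosen with earlier results of these data known. A few genes are counted but not reported here by name.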

Additional observations from a re-analysis of the deposited data

How the results depend on the processing

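Differences are lactate minus control. For genes with a peak (-12 as deposited), distinct peaks (-12.5), covered length (-10166 bp), fold percentile (14.5 points) and genes with a summit just past the start (-6.5), no setting reversed the sign, and no exact permutation p fell under 0.333. An equal number of 37951 peaks changed most: the difference in distinct peaks became 0, control-only genes became 6, lactate-only genes 2 and genes in all 4 libraries 4. Of all coding genes 2.67%, 2.68% and 26.2% were in these classes with equal numbers of peaks. With the gene span alone, genes in all 4 libraries became 6 (8.22%). In that setting 28.4% of all coding genes and 16.0% of genes of like length had a peak in all 4 libraries. Genes in all 4 libraries differed from genes of like length by -4.42 percentage points, and the gap was -4.23 to -8.94 points in the settings that kept the length match; against all other coding genes, whatever their length, the gap was -15.98 points. Leaving out 1 library at a time gave 1 to 3 lactate-only genes (2 without lactate replicate 2, 3 without lactate replicate 3), 11 to 15 control-only genes and 10 or 11 with a peak in every remaining library. Of all coding genes, 2.05% to 2.44% were then lactate-only and 30.6% to 32.5% had a peak in every remaining library. Control-only genes numbered 11 without lactate replicate 2 and without lactate replicate 3, 12 without control replicate 3 and 15 without control replicate 2, where fewer libraries set the class and 8.13% to 9.43% of all coding genes were in it, against 5.8% as deposited. The replicate block, pairing libraries by number, gave the same differences with a sign-flip p of 0.5, the smallest possible (-12 genes with a peak). Same-numbered libraries did not deviate together in peaks per gene (correlation 0.012 over 19126 genes, replicate 2 minus 3). Whether they share a culture or a day cannot be told from this correlation or from the labels. The settings for summits past the start, among them 1 kb in place of 500 bp (-7.5 genes) and equal numbers of peaks (-3.5), were chosen after seeing the data.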
